A study of Mus musculus with 12 samples.

Results

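Circular RNAs of whole blood were compared between mice kept under middle cerebral artery occlusion (MCAO) for 24 h and sham-operated mice, on 3 arrays per group. These are 6 of the 12 arrays of a series that also holds 5 min and 3 h of occlusion, and each array was assigned by the group named in its title. All mice were male Balb/c, of an age given as 8 weeks in the labels and differently in the methods. In the 24 h group a silicon-coated nylon filament blocked the artery from within, under isoflurane, for 24 h, and the sham mice went through the operation at a time point of 0 h, without occlusion. Blood came from cardiac puncture, linear RNA was digested with RNase R, and the remaining RNA was labelled with Cy3 and hybridised to the Arraystar Mouse circRNA Array v2, one sample per array.

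A circular RNA (circRNA) arises when the splicing machinery joins the end of a downstream exon to the start of an upstream one, a back-splice that leaves a covalently closed ring. Having no free ends, circRNAs resist exonucleases, outlast most messenger RNAs and can be read in blood. Many are abundant in brain, and a gene may give several of them that need not follow each other or their linear transcript.

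The array reads each circRNA with a probe across its back-splice junction, and an intensity can be compared between arrays for a given probe but not between probes. Intensities are given below as normalized log2 values, so that a difference of 1 is a doubling, and a level or a fold change belongs to a probe. Of 14236 circRNA probes, 10678 were bright enough to be tested. Names, host genes and positions (mm10, the same assembly as GRCm38) were taken from the study's list of changed circRNAs by matching 2 statistics per entry, which named 902 probes. Since that list holds circRNAs the study had called at some time point, named probes are no sample of all probes.

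Several features of the arrays bear on every value that follows. The sham arrays and the 24 h arrays lay on different slides, slide 1 and slide 2, and of the other groups only 3 h was on both, with replicates 1 and 2 on slide 1 and replicate 3 on slide 2. Negative control spots had raw medians of 25 on each sham array and of 89, 101 and 98 on the 24 h arrays, and slide and group cannot be told apart without the 3 h arrays. Sham replicate 2 was the middle value of its group for 83.2% of 10673 probes. Where sham replicates 1 and 3 differed by at least 1 log2 unit, at 2360 probes, sham replicate 2 fell between them for 99.7%, at a median of 0.67 of the way from replicate 1 to replicate 3 on the linear scale (quartiles 0.62 and 0.72). Replicate 2 of the 24 h group was the middle value for 64.8% of probes, with quartiles of its position of 0.53 and 0.85. The series text calls the replicates separate experiments, the p-values measure only the spread between these arrays, and counts without sham replicate 2 are given beside the main ones.

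After 24 h of MCAO, 3398 of the 10678 probes (31.8%) differed from sham when limma p-values, adjusted by Benjamini-Hochberg over all tested probes, were held to 0.05 or less, 1504 of them higher (14.1%) and 1894 lower (17.7%). At least 4-fold changes were found for 815 probes (7.63%). Of these 488 were higher (4.57%) and 327 lower (3.06%). The arrays of the 2 groups did not overlap for 4746 probes (44.4%), among them 803 of the 815. Without sham replicate 2 the count of calls was 2170, and of the 4-fold calls 453 of 488 higher and 297 of 327 lower stayed called and past 4-fold. The smallest two-sided p of an exact rank test on 3 against 3 arrays is 0.1, so each call rests on the limma model. That model takes the spread of a probe from all arrays of the series and, in part, from other probes.

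The share of higher calls among the large changes moved with the scaling, and higher calls were the majority under each. The median change of all tested probes was -0.18 as normalized here, and 59.9% of the 4-fold calls were higher. When each array was scaled by the 75th percentile of the scanner's processed signal, the median was 0.07 and 894 probes were higher against 311 lower (74.2% higher), and cyclic loess gave 560 against 220 (71.8% higher).

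**Figure D1:**
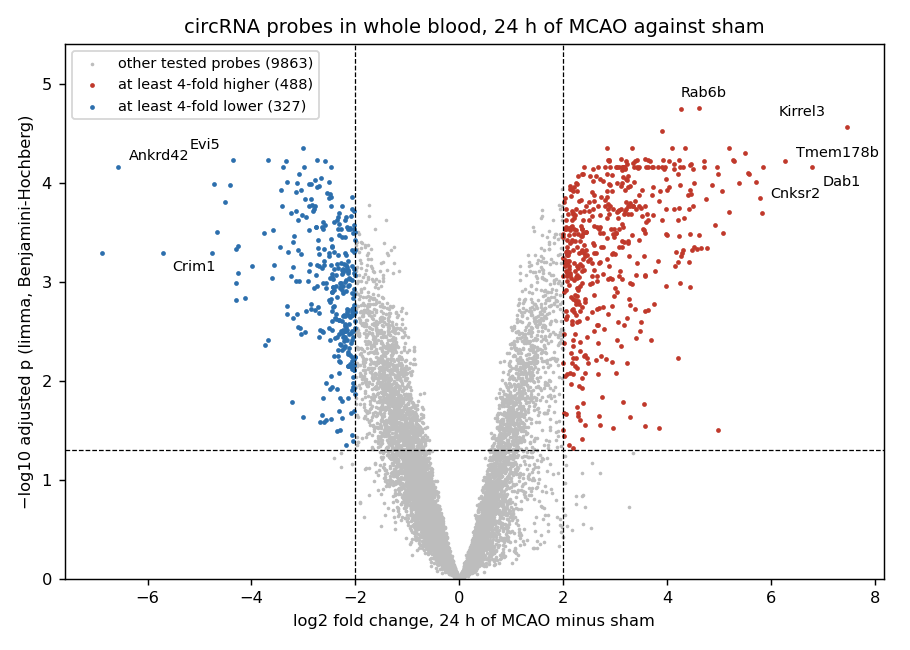
Each point is 1 of the 10678 tested circRNA probes, with its log2 fold change at 24 h on the horizontal axis and -log10 of its adjusted p on the vertical axis; dashed lines mark 4-fold change and an adjusted p of 0.05. The 488 red points reach 7.46 for Kirrel3, and most of the 327 blue points lie between -2 and -4.

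The increases were larger than the decreases. The median log2 fold change was 2.82 among the 488 higher probes and -2.35 among the 327 lower ones, and 70 probes rose at least 16-fold against 15 that fell as far. The spread between replicates also differed. Among the higher probes the median SD was 0.21 in sham and 0.50 at 24 h, with 24 h the wider group for 399 probes (81.8%, against 67.9% of all tested probes). Among the lower probes the medians were 0.42 and 0.48. Replicate 3 of the 24 h group was the dimmest of its group at 444 of the 488 higher probes, and leaving it out raised the count of 4-fold calls from 815 to 1017.

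The largest increase was that of mmu_circRNA_43956, an intronic circRNA of Kirrel3, which encodes an immunoglobulin-type adhesion protein of synapses (chr9:34536915-34538449, plus strand). It read 6.21, 6.15 and 6.08 in the sham arrays and 13.85, 14.22 and 12.77 at 24 h. The groups lay far apart, a 176-fold difference with a log2 fold change of 7.46 ± 0.57 (SE, n = 3 per group, limma adjusted p = 2.73e-05). An intronic circRNA of Dab1, the adaptor that carries the reelin signal in migrating neurons, came next (mmu_circRNA_37286, chr4:103754180-103764967, plus strand). Its sham arrays read 5.82, 5.45 and 5.44, and its 24 h arrays 13.30, 13.23 and 10.54, so that replicate 3 rose about 3 units less than the others and the mean rose 111-fold. For mmu_circRNA_40203 of Tmem178b (chr6:40004144-40207533, plus strand) the sham arrays read 7.20, 7.01 and 6.95 and the 24 h arrays 13.03, 13.55 and 13.42, and no 24 h array stood apart. These 3 were among the circRNAs that the study went on to measure by RT-qPCR.

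The other increases among the 10 largest of named circRNAs ranged from 5.38 to 5.85 on the log2 scale. They were an exonic circRNA of Xdh, the enzyme that makes uric acid (mmu_circRNA_30884, 5.38 ± 0.63), one of Psmd12, a subunit of the proteasome lid (mmu_circRNA_24344, 5.55 ± 0.62), and one of Cnksr2, a scaffold of Ras signalling at synapses (mmu_circRNA_45876, 5.72 ± 0.66). An intronic circRNA of Adck1, a mitochondrial member of an atypical kinase family, rose by 5.79 ± 0.72 (mmu_circRNA_19077), and mmu_circRNA_22526, for which no host gene could be settled, by 5.51 ± 0.50. Not all came from the sense strand of a gene. mmu_circRNA_45047 is antisense to Manf, which encodes a secreted factor made under stress of the endoplasmic reticulum, and rose from 7.01, 6.93 and 6.85 to 13.38, 13.47 and 10.70. The intergenic mmu_circRNA_31169 (chr17:94694281-94695119, minus strand) rose from 6.00, 6.21 and 6.55 to 12.95, 12.98 and 10.40. All 20 antisense circRNAs with a name were at least 4-fold higher, as were 15 of the 20 intergenic ones, against 476 of 902 over all named circRNAs.

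The largest named decrease was that of mmu_circRNA_41878, an exonic circRNA of Ankrd42, an ankyrin-repeat gene (chr7:92584465-92631662, minus strand). The sham arrays read 14.58, 13.59 and 13.03 and the 24 h arrays 8.39, 7.28 and 5.81, a 95.1-fold difference (log2 fold change -6.57 ± 0.71, limma adjusted p = 7.03e-05). A probe without a name, ASCRP4011715, stood at -6.88 ± 1.06, but was well above background on only 1 of 3 arrays at 24 h, so its size has no order against that of Ankrd42. mmu_circRNA_015506 of Crim1, a membrane protein that binds bone morphogenetic proteins, read 13.98, 12.26 and 10.90 in sham and 8.70, 6.10 and 5.25 at 24 h (-5.70 ± 0.88). Its groups did not overlap although each spanned about 3 units.

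Several of the remaining large decreases were also taken to RT-qPCR by the study. mmu_circRNA_40795 of Tmcc1, a membrane protein of the endoplasmic reticulum, read 15.28, 14.81 and 13.66 in sham and 11.34, 10.27 and 7.84 at 24 h (-4.77 ± 0.74). mmu_circRNA_003795 of Cep350, a centrosomal protein that anchors microtubules, read 14.99, 14.05 and 12.86 in sham and 10.46, 9.11 and 8.81 at 24 h (-4.51 ± 0.57). Sham replicate 1 was the highest and replicate 3 the lowest array for both. For mmu_circRNA_45921 of Phka2, the regulatory subunit of liver phosphorylase kinase, the sham arrays were tight, at 15.11, 14.95 and 14.95, and the 24 h arrays read 11.06, 10.06 and 10.64 (-4.42 ± 0.52). mmu_circRNA_39121 of Evi5, a regulator of cell division and Rab traffic, was as tight, with 12.29, 12.51 and 12.49 in sham and 7.91, 7.88 and 8.46 at 24 h (-4.35 ± 0.42). The others were circRNAs of Igf2 (mmu_circRNA_002246, -4.67 ± 0.67), the testis gene Spata16 (mmu_circRNA_35175, -4.30 ± 0.75, well above background on 2 of 3 arrays at 24 h) and Khdrbs1 (mmu_circRNA_37699, -4.29 ± 0.79), which encodes the RNA-binding protein Sam68 and whose sham arrays ran from 12.04 to 16.30.

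**Figure D2:**
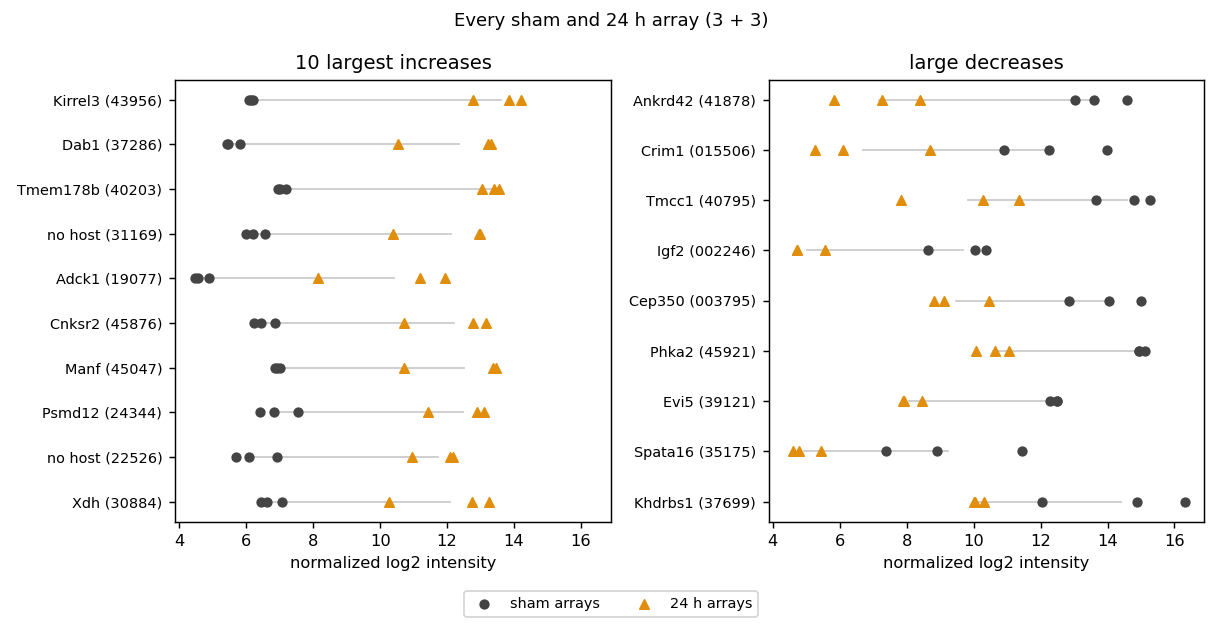
Normalized log2 intensity of the 10 named circRNAs with the largest increases (left) and of 9 with large decreases (right); dark circles are the 3 sham arrays, orange triangles the 3 arrays of 24 h, and grey lines join the group means. In every row the groups are separate, with one 24 h array well below the others for Dab1, Manf and Adck1, and a wide sham group for Crim1, Spata16 and Khdrbs1.

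Since the groups share no slide, the change can be split into steps that each stay on a slide. On slide 1, replicates 1 and 2 of 3 h can be set against sham, and on slide 2 the 3 arrays of 24 h against replicate 3 of 3 h. The sum of both steps is what limma fits when slide is a term of the model, and the second step leans on that single 3 h array. For Kirrel3 the steps were 4.06 and 3.93, for Dab1 3.63 and 4.84, and for Adck1 1.30 and 5.04. For Ankrd42 they were -1.67 and -2.77. Igf2 fell by 2.22 in the first step and stood at 0.024 in the second, so within slide 2 the 24 h arrays were level with the 3 h array.

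Over the 488 higher probes the median steps were 1.71 and 1.32, against -0.08 and 0.02 over all tested probes, and 462 probes had both steps upward. Over the 327 lower probes the medians were -0.74 and -0.91, and 287 had both steps downward. With slide as a fixed term, 348 of the 488 higher probes still passed an adjusted p of 0.05 in the same direction, and 41 of the 327 lower ones (limma), against 6.47% and 0.684% of all tested probes, while the median SE rose from 0.35 to 0.60. With slide as a random block the numbers were 465 and 296, against 10.3% and 8.41%. The probes were chosen by the same contrast, so these shares are a description. All 10 of the largest named increases passed with slide as a fixed term (adjusted p between 0.01 and 0.0219, limma). Of the 9 large decreases described above, those of Ankrd42 (0.0332), Cep350 (0.0487) and Evi5 (0.0149) passed, and the other 6 had adjusted p of 0.0567 (Phka2) to 0.187 (Igf2). The call for most decreases is thus lost when slide is a term of the model, with all but 3 of the 327 estimates still below 0. Among the 488 higher probes 473 estimates stayed above 0, so some increases turned as well.

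**Figure D3:**
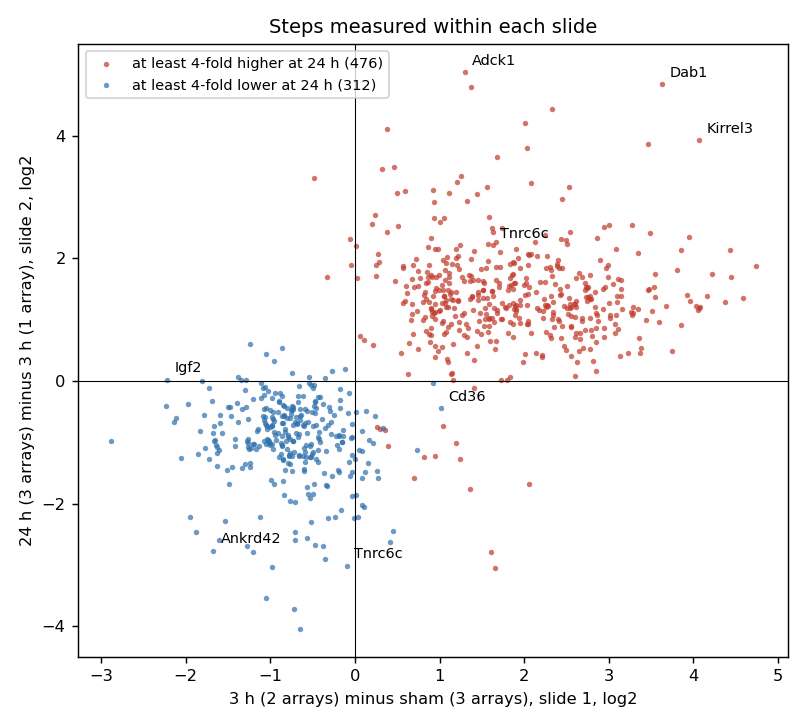
Each point is 1 of the 788 named circRNAs past 4-fold at 24 h, placed by the 3 h minus sham difference on slide 1 (horizontal) and the 24 h minus 3 h difference on slide 2 (vertical), both on the log2 scale. Red points (higher at 24 h) fill the upper right and blue points (lower) the lower left, with some red points below the horizontal zero line, Igf2 on the horizontal zero line and Cd36 to the right of the vertical one.

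The comparisons of 5 min and 3 h use the same sham arrays, so their values are given side by side only. Over the 488 higher probes the median log2 fold change against sham stood at 0.77 for 5 min, 1.69 for 3 h and 2.82 for 24 h. Over the 327 lower probes it was -0.34, -1.02 and -2.35, and over all tested probes 0.10, -0.12 and -0.18. Members differed from that median course. Kirrel3 stood at 1.11, 3.89 and 7.46, and Psmd12 was already at 4.17 at 3 h and reached 5.55. Evi5 stood at -0.23, -1.57 and -4.35, whereas Ankrd42 stood at -4.07 at 5 min and -2.38 at 3 h before -6.57 at 24 h. The direct contrast of 24 h against 3 h, which leaves sham out, passed an adjusted p of 0.05 for 150 of the 488 higher and 113 of the 327 lower probes, against 4.65% of all tested probes (limma). For 24 h against 5 min it passed for 450 and 251 of them, against 30.1% of all tested probes. Both sets were chosen for their values at 24 h, so nothing is read from these counts.

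The named 4-fold calls came from 684 host genes. Of these, 59 genes gave at least 2 such circRNAs, 124 in all. In 23 genes all were higher, in 25 all were lower, and in 11 genes circRNAs went in opposite directions. Pairs were sorted by their back-splice junctions. For 11 pairs both ends lay within 10 bases of each other, all 11 moved the same way, and their log2 fold changes differed by a median of 0.20. Probes of such pairs may share most of the junction and cannot be read as separate measurements. Pairs with a shared end went the same way in 26 of 28 cases, and overlapping pairs without a shared end in 11 of 13. Pairs that did not overlap went the same way in 10 of 19, with a median difference of 2.83. Of all named 4-fold calls 476 were higher and 312 lower, so circRNAs of unrelated genes would often go the same way too. Agreement between different genes was not computed, so these counts have no base share beside them. The 4-fold cut also sets part of the differences.

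Elf2, which encodes an ETS-family transcription factor, shows the first kind. Its 3 circRNAs share the lower coordinate (chr3:51308049, minus strand), and their upper coordinates lie within 5 bases of each other. These circRNAs fell by 3.34, 2.84 and 2.78 on the log2 scale. The first of them, mmu_circRNA_003023, read 13.80, 13.65 and 13.55 in sham and 9.72, 10.15 and 11.13 at 24 h. The 3 circRNAs of the sialyltransferase gene St6galnac3 share the lower coordinate as well (mmu_circRNA_36337, mmu_circRNA_010337 and mmu_circRNA_19311) and fell by 3.12, 2.17 and 2.23. The 3 listed under Gm21992 also share the lower coordinate (chr19:4784723, minus strand), and their log2 fold changes of -2.13, -2.06 and -2.01 were nearly equal.

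The opposite case was clearest in Tnrc6c, whose protein works with Argonaute in microRNA silencing. mmu_circRNA_24446 (chr11:117700724-117723550, plus strand) read 12.66, 13.10 and 13.27 in sham and 9.06, 9.26 and 9.70 at 24 h. mmu_circRNA_24450, from further downstream (chr11:117735971-117740009), read 5.19, 5.51 and 5.71 in sham and 10.38, 10.09 and 8.69 at 24 h. One circRNA thus fell by 3.67 while the other rose by 4.25 ± 0.44 on the log2 scale, and both passed with slide as a fixed term (limma adjusted p = 0.0158 and 0.018). In Cnksr2, mmu_circRNA_45876 rose and mmu_circRNA_45879, which overlaps it, fell from 10.19, 9.66 and 9.13 to 7.19, 6.36 and 6.29 (-3.05 ± 0.64). That decrease had an adjusted p of 0.338 with slide as a fixed term (limma).

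In Pcnx, a gene for a multipass membrane protein, a pair of circRNAs with starts within 10 bases of each other rose, mmu_circRNA_19073 by 5.20 ± 0.46 and mmu_circRNA_25428 by 2.33 ± 0.31. A circRNA from further along the gene, mmu_circRNA_25433, read 10.19, 8.80 and 8.25 in sham and 7.12, 6.23 and 4.99 at 24 h, and was not well above background on one of the 24 h arrays. Its change was -2.96 ± 0.62, and with slide as a fixed term the estimate was -1.20 (limma adjusted p = 0.531). Tlk1, a kinase of chromatin assembly, had mmu_circRNA_33806 higher (2.14 ± 0.55) and the overlapping mmu_circRNA_33808 lower (-2.78 ± 0.32), as was mmu_circRNA_33824 (-2.22). For mmu_circRNA_33808 the sham arrays read 10.40, 10.76 and 10.94 and the 24 h arrays 7.90, 7.76 and 8.11, and mmu_circRNA_33806 and mmu_circRNA_33808 kept an adjusted p below 0.05 with slide as a fixed term (0.0277 and 0.0385, limma). Mms22l and Syf2 each had a pair with a shared end that went opposite ways (-2.29 and 2.59, and -2.27 and 2.41).

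**Figure D4:**
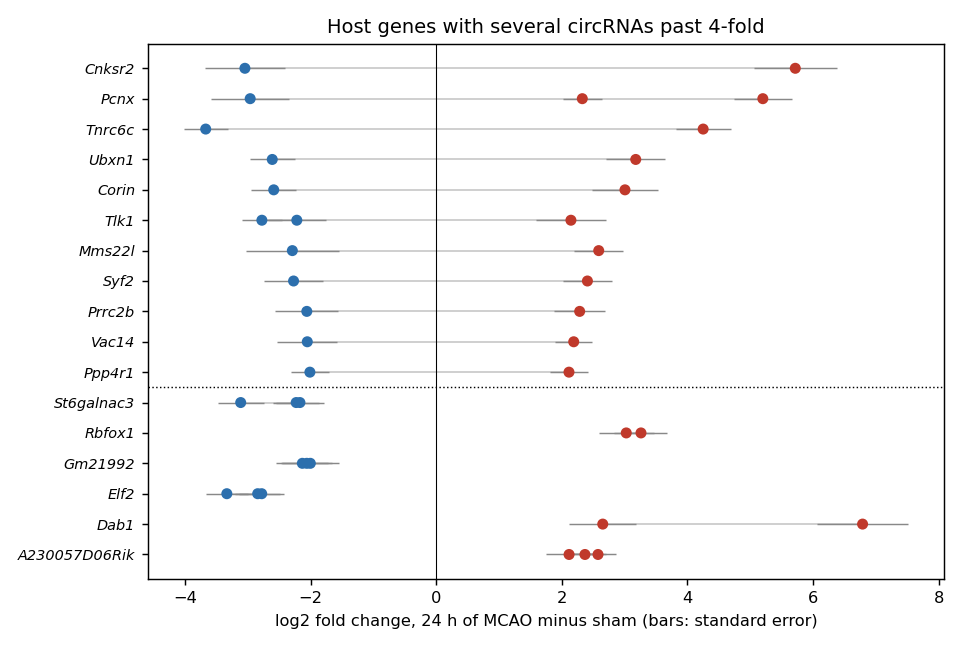
Log2 fold change at 24 h of the named circRNAs past 4-fold, by host gene, with bars of 1 standard error. Above the dotted line are the 11 genes whose circRNAs went both ways, with Cnksr2, Pcnx and Tnrc6c the widest apart, and below it 6 of the genes whose circRNAs moved together, such as Elf2 and Gm21992.

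Host genes were grouped by function, in lists matched by gene symbol. The counts that follow are directions among named circRNAs past 4-fold, of which 476 were higher and 312 lower in all, inside or outside a list (60.4% higher, median log2 fold change of all 902 named circRNAs 2.07). Names came from a list of changed circRNAs, and 788 of the 902 were past 4-fold. The size of a list median is thus largely set by the naming. Genes of the excitatory synapse gave 10 named circRNAs, 9 of them higher and 1 lower, with a median of 2.47. The largest belonged to Cacng3, which encodes an auxiliary subunit of AMPA-type glutamate receptors (mmu_circRNA_42273). It read 7.32, 7.29 and 7.50 in sham and 13.16, 13.42 and 11.35 at 24 h (5.27 ± 0.50). The exception was mmu_circRNA_29200 of the NMDA receptor gene Grin2a, at -2.02 ± 0.59, a call lost without sham replicate 1, sham replicate 2 or 24 h replicate 2.

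Genes of neuronal adhesion and axon guidance gave 28 named circRNAs, of which 24 were at least 4-fold higher and 2 lower, with a median of 2.62. Beside Kirrel3 and Dab1 these included circRNAs of the adhesion genes Opcml (4.31) and Ncam2 (3.97), and one antisense to Auts2, a regulator of neuronal development (4.21). The lower pair were circRNAs of the adhesion gene Chl1 (mmu_circRNA_40693, -2.33 ± 0.53) and of the ephrin receptor gene Ephb2 (-2.18). Their host genes were long, with a median of 739850 bases for the hosts of those past 4-fold against 92320 for hosts of all named circRNAs and 17149 for all RefSeq protein-coding genes. Of the 24 higher ones, 13 passed with slide as a fixed term, and 7 of the 9 higher ones of the excitatory synapse. Over all named circRNAs at least 4-fold higher, 345 of 476 passed.

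Calcium and voltage-gated ion channels were mixed, with 12 higher and 6 lower among 24 named circRNAs. mmu_circRNA_010777 of Kcnma1, the large-conductance calcium-activated potassium channel, read 7.13, 6.63 and 6.61 in sham and 12.61, 12.17 and 11.50 at 24 h (5.30 ± 0.53), and mmu_circRNA_35962 of the potassium channel gene Kcnc4 rose by 3.74 ± 0.45. The largest decrease was in Cacna1d, an L-type calcium channel (mmu_circRNA_27348, -3.68 ± 0.79). Its 24 h arrays split into 9.66, 5.66 and 5.75 against 10.58, 10.70 and 10.84 in sham, so that replicate 1 lay near sham. mmu_circRNA_19729 of the potassium channel gene Kcnq5 stood at -2.70 ± 0.57.

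Genes of MAP kinase and Ras signalling split into 8 higher and 6 lower. Rasa3, which switches Ras and Rap off, gave mmu_circRNA_42572, at 9.31, 8.81 and 8.67 in sham and 13.84, 13.80 and 13.38 at 24 h (4.75 ± 0.59). The circRNAs of Cnksr2 given above belong to this list. Motor and linker proteins of the cytoskeleton gave 6 higher and 3 lower, with mmu_circRNA_21730 of the microtubule protein Map7 at 4.23 ± 0.55 and mmu_circRNA_39349 of Clip1 at 3.08 ± 0.40. On the lower side mmu_circRNA_44643 of the cargo motor Myo5a stood at -2.56 ± 0.45.

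Genes of blood cells were few among the named hosts, which come only from circRNAs the study had called as changed. Lymphoid and myeloid genes gave 5 named circRNAs, 4 of them at least 4-fold lower and none higher. A pair came from Vav3, a signalling protein downstream of immune receptors. mmu_circRNA_35996 read 8.77, 8.21 and 7.88 in sham and 5.29, 5.62 and 6.04 at 24 h (-2.64 ± 0.37), and mmu_circRNA_35991 changed by -2.36 ± 0.47. Cd36, a fatty acid and thrombospondin receptor of platelets and monocytes, gave mmu_circRNA_38143, at 9.58, 8.36 and 7.66 in sham and 6.65, 6.24 and 5.33 at 24 h. Its call (-2.46 ± 0.75, limma adjusted p = 0.0245) was lost when either sham replicate 1 or 2, or 24 h replicate 2 or 3, was left out, and with slide as a fixed term the estimate was 0.58. None of the 4 passed with slide as a fixed term, against 38 of the 312 named circRNAs at least 4-fold lower. A circRNA of Plcg2, a phospholipase of B cell signalling, stood at -2.27, and that of Ets1 at 1.57 without passing the test. In whole blood, fewer cells of a type and less RNA per cell cannot be told apart.

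The tissue label could be checked against cell type markers only through host genes, since the array reads circRNAs. Of the marker lists for red cells, platelets, neutrophils, T cells and B cells, with 8 to 12 genes each, F13a1 of platelets was the only host of a named circRNA, with -1.30 and -1.29 for its pair. Of 10 neuron markers, 5 were hosts of 6 named circRNAs, and 5 of these were at least 4-fold higher, including those of Kcnq3 (3.22) and Nrxn3 (2.65). None of the 5 astrocyte or 5 oligodendrocyte markers was a host of a named circRNA. A circRNA that the study called at no time point has no name here, so a missing host says nothing about presence in blood. So few hosts allow no check of the blood label, and the part of any cell type in the changes was not tested. The list of erythroid and platelet genes held 3 named circRNAs, the F13a1 pair and that of Tmcc1. Only that of Tmcc1 was at least 4-fold lower, and Tmcc1 is not among the red cell or platelet markers.

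Other lists held more decreases, split evenly or lay near the 60.4% higher of all named circRNAs past 4-fold. Genes of RNA-binding and splicing proteins gave 27 named circRNAs, 16 lower and 11 higher, with a median of -2.38. All 27 were past 4-fold, as were 788 of all 902 named circRNAs. Khdrbs1 and Tnrc6c led the decreases, followed by that of the core spliceosome helicase Snrnp200 (-3.40), and Tnrc6c and mmu_circRNA_010147 of the polyadenylation factor Cpeb3 (3.58 ± 0.46) the increases. Both circRNAs of Rbfox1, a splicing regulator of neurons and muscle, rose (3.26 and 3.03). The ubiquitin system gave 13 lower and 7 higher. mmu_circRNA_36102 of Usp53 stood at -3.20 ± 0.48 and mmu_circRNA_21208 of Dcaf6, a substrate receptor of a cullin ligase, at -2.99 ± 0.31, while mmu_circRNA_42738 of the ligase gene Rnf122 rose by 3.52 ± 0.47 and mmu_circRNA_000692 of Ube2cbp by 2.77 ± 0.42.

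Chromatin regulators split into 9 higher and 6 lower. mmu_circRNA_40898 of the histone demethylase gene Kdm5a rose by 4.23 ± 0.62 and mmu_circRNA_003170 of Mllt10 by 3.26 ± 0.49, while mmu_circRNA_42683 of the histone methyltransferase gene Nsd3 stood at -3.09 ± 0.35 and mmu_circRNA_31561 of Brd8 at -2.86 ± 0.53. The list for the cilium and centrosome gave 11 higher and 7 lower. Its higher side includes Ttc3, Ttc13, Ttc19, Ttc39b and Ttc39c, whose place in the cilium or centrosome was not checked. The split is therefore not one of cilium and centrosome genes alone. On the higher side stood mmu_circRNA_42362 of Wdr11 (4.18 ± 0.64) and mmu_circRNA_37769 of Cep85 (3.94 ± 0.43). On the lower side were that of Cep350 given above and mmu_circRNA_27614 of Ift88 (-4.13 ± 0.75, well above background on 1 of 3 arrays at 24 h). Vesicle and membrane traffic was evenly divided, with 14 higher and 13 lower. In its leading increase, mmu_circRNA_45000 of the Golgi GTPase gene Rab6b, both groups were tight, with 6.14, 5.94 and 5.77 in sham and 10.67, 10.88 and 10.14 at 24 h (4.61 ± 0.31, limma adjusted p = 1.77e-05). mmu_circRNA_30190 of Synj2 rose by 4.46 ± 0.46, and mmu_circRNA_40266 of Snx10 stood at -2.65 ± 0.43, well above background on 1 of 3 arrays at 24 h.

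**Figure D5:**
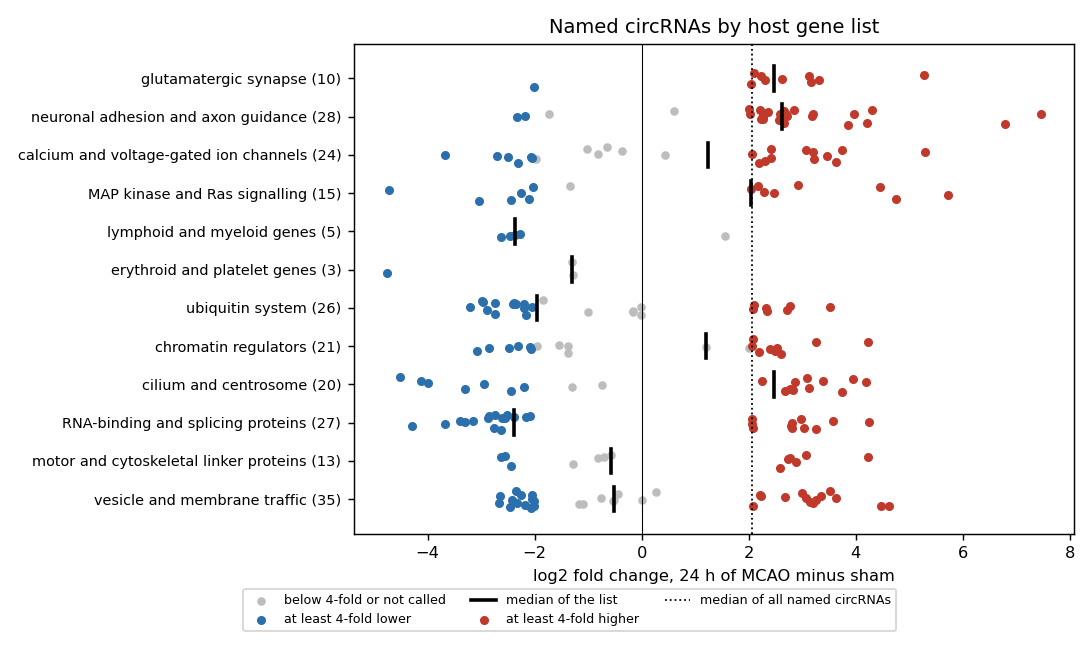
Log2 fold change at 24 h of every named circRNA in each host gene list shown, with the number of circRNAs in parentheses; red and blue points passed the test at 4-fold or more, grey points did not, black bars are list medians and the dotted line is the median of all named circRNAs (2.07). Nearly all points of the 2 neuronal lists lie on the right, and those of the lymphoid and myeloid list on the left but for Ets1.

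The genomic spans of some circRNAs enclose other RNA genes. A span is the genome between the listed ends of a circRNA, and which parts of it the ring keeps was not tested. The spans of 11 named circRNAs contain a microRNA hairpin on the same strand, 8 of them higher and 3 lower at 24 h. Of all named circRNAs past 4-fold 60.4% were higher. The 8 include 3 overlapping circRNAs of 1 gene, A230057D06Rik, so they are not 8 separate cases. The array read the circRNA junctions and not the microRNAs. The spans of the 3 circRNAs of the noncoding gene A230057D06Rik, in the imprinted Prader-Willi region, enclose hairpins of the miR-344 family. Of these circRNAs mmu_circRNA_41535 and mmu_circRNA_41537 are listed as exonic, and the hairpins may be absent from them. All 3 circRNAs rose, mmu_circRNA_41532 by 2.58 ± 0.28, mmu_circRNA_41535 by 2.37 ± 0.34 and mmu_circRNA_41537 by 2.11 ± 0.37. mmu_circRNA_41532 read 5.94, 5.84 and 5.82 in sham and 8.89, 8.44 and 7.99 at 24 h. The 5′ arms are shown because they share a seed, set in capitals (bases 2 to 8, RefSeq, GRCm38.p6).
mmu-miR-344b-5p: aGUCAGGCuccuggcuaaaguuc
mmu-miR-344c-5p: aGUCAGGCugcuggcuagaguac
mmu-miR-344-5p: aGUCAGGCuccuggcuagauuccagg

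The span of mmu_circRNA_35559 of Smc4, a condensin subunit, encloses the cluster of miR-15b and miR-16-2, microRNAs known to hold back the cell cycle (chr3:69009483-69019325, plus strand). This circRNA is listed as exonic, so the cluster may be absent from it. Its sham arrays read 6.04, 5.72 and 5.84 and its 24 h arrays 8.31, 8.08 and 7.35 (2.05 ± 0.29). Both 5′ arms carry the same seed, again in capitals.
mmu-miR-15b-5p: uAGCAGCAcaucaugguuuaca
mmu-miR-16-5p: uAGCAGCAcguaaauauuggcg

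mmu_circRNA_000113 is short enough to be shown whole. It lies on the minus strand, antisense to the maternally expressed noncoding gene Rian, at chr12:109603917-109603990, within the promoter window of Rian in RefSeq (GRCm38.p6). The 74 bases below are read 5′ to 3′ on the minus strand, and whether listed starts count from 0 or 1 could not be settled, so that the last base may lie outside.
mmu_circRNA_000113: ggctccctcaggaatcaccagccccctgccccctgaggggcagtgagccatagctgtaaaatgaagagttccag

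It read 7.72, 7.42 and 7.34 in sham and 9.16, 9.71 and 9.76 at 24 h (2.05 ± 0.40, limma adjusted p = 0.00236), and the groups did not overlap. With slide as a fixed term its estimate was 2.03 and its adjusted p 0.136 (limma).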

How the data were processed

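Per the file headers, each array was scanned and read with Agilent Feature Extraction 11.0.1.1. The authors deposited the scanner output, with raw spot and local background intensity medians, and a log2 table of quantile-normalized values for the series. Here spot intensities were corrected with the local background by normexp (offset 0), quantile normalized over 15712 spots and brought to log2 (limma 3.58.1, R 4.3.3, statmod 1.5.0). Probes were tested where their brightness was at least 1.1 times the 0.95 quantile of the 77 negative controls on all 12 arrays. limma was fitted to all 12 arrays as 4 groups with a mean-variance trend, and 24 h minus sham was tested with Benjamini-Hochberg adjustment. Array number limits the precision: residual degrees of freedom were 8. Of 2362 entries in the study's list 2360 matched a probe within 0.0005 in 2 statistics (log2 fold change and mean level); host symbols came from the list (814) or were corrected for spelling by position in RefSeq (42).

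Replicate numbers in the titles are shared between groups, and same-numbered sham and 24 h arrays deviated together (correlations 0.40, 0.12 and 0.46), so a fit with the replicate number as a block was run as an alternative. The circRNAs named were 6 of those measured by RT-qPCR, and, among calls past 4-fold whose arrays did not overlap, the 10 largest changes in each direction, the 2 largest of each host gene list in each direction, hosts with 3 or more, and the largest antisense and intergenic ones, 76 in all; further members are given as examples. The circRNAs, gene lists and tests were chosen with earlier results of these data known. The authors' list also gives fold changes, mean levels and p-values of their own comparisons; the first 2 served only to match names, and the p-values were not used. Some circRNAs and a host gene list are not reported here. The calculation was tested on simulated data.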

Additional observations from a re-analysis of the deposited data

Results flagged for a closer look

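For 26 circRNAs reported here the effect at 24 h differed from the effect at 3 h by the direct limma contrast (adjusted p of at most 0.05), which involves 3 h arrays of both slides. The 24 h value stood above the 3 h value by 4.67 log2 units for Adck1, 4.59 for the intergenic mmu_circRNA_31169, 3.72 for Dab1, 3.65 for Manf, 3.57 for Kirrel3, 2.92 for Kdm5a and 2.88 for mmu_circRNA_19073 of Pcnx. It stood above by 2.55 for mmu_circRNA_22526, 2.48 for mmu_circRNA_24450 of Tnrc6c, 2.24 for Cacng3, 2.15 for Rab6b, 2.02 for Ube2cbp and 1.74 for Clip1. For 13 circRNAs the difference was negative, with -4.19 for Ankrd42, -3.59 for Crim1, -3.57 for Tmcc1, -3.39 for mmu_circRNA_24446 of Tnrc6c, -2.92 for Spata16, -2.77 for Evi5 and -2.75 for Cep350. The smaller ones were -2.64 for Nsd3, -2.45 for Kcnq5, -2.41 for Dcaf6, -1.83 for Usp53, -1.82 for mmu_circRNA_33808 of Tlk1 and -1.60 for mmu_circRNA_003023 of Elf2. The effects at 24 h and at 5 min differed for 65 of the 76 chosen by rule, most of them for large changes at 24 h, and for 30.1% of all tested probes. Groups of 3 arrays were too small for a search for outlying arrays.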

How the results depend on the processing

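The count of 3398 calls was 764 with slide as a fixed term (691 higher, 73 lower), 1996 with slide as a random block and 7751 with array weights, estimated gene by gene because the default method did not converge. The 815 calls past 4-fold became 519 without background subtraction (167 lower) and 502 with normexp offset 50 (158 lower), against 327 lower calls in the main analysis. The 488 higher calls became 894 with 75th percentile scaling, and the 327 lower ones 49 with slide as a fixed term. Leaving out each array in turn gave 2170 to 3753 calls, 718 to 1017 past 4-fold, 403 to 606 higher and 315 to 411 lower; the lowest count of calls was without sham replicate 2. With the replicate number as a block there were 3457 calls and 817 past 4-fold (487 higher, 330 lower), and the block changed no call among the 76 circRNAs chosen by rule. Of these, 72 kept their call under every alternative without a slide term that could test them, the exceptions being Sptbn1, Grin2a, Nbea and Cd36 when single arrays were left out. With slide as a fixed term 45 kept it, 29 lost it in the same direction and 2 turned, mmu_circRNA_35381 of Nbea to 0.89 and mmu_circRNA_38143 of Cd36 to 0.58. Within slide 2 alone mmu_circRNA_002246 of Igf2 stood at 0.024. The cause was not tested. Dim probes limit the decreases, since 277 of 327 were well above background on all 3 arrays of 24 h.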

Other observations

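The imprinted region of chromosome 7 around Snhg14 held 6 named circRNAs past 4-fold, all higher. Beside the 3 of A230057D06Rik they were mmu_circRNA_41481 (3.23) and mmu_circRNA_002520 (4.99) of Snhg14, a long noncoding host of small nucleolar RNAs, and mmu_circRNA_41526 of A230006K03Rik (3.54). For mmu_circRNA_002520 the limma fit that held slide fixed gave an adjusted p of 0.75. The region was chosen after its values were seen.

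Exonic circRNAs past 4-fold spanned a median of 13224 bases of genome when higher and 10180.5 when lower. Among probes without a name, 27 were past 4-fold (12 higher, 15 lower), with 5.84 for ASCRP4001622 the largest increase. Replicate 3 of the 5 min group lay between the other two for 99.4% of the 2149 probes at which those differed by at least 1 log2 unit, much as sham replicate 2 did.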
